A study of Mus musculus with 9 samples.

Results

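Endosomal Toll-like receptors sense nucleic acids that reach the endosome, and the machinery that folds, cuts, supplies and restrains them is described here through 10 genes. They were taken by symbol from the 24391 genes listed for mouse CD8+ T cells: the receptors Tlr7, Tlr9 and Tlr3, the chaperone Unc93b1, the proteases Ctss and Lgmn, the transporters Slc15a3 and Slc15a4, and the exonucleases Pld3 and Pld4. All 10 were listed and 8 passed the low-count filter, the exceptions being Tlr9 and Tlr3. The genes were picked with the difference between LSD1i and NT cells in batch-corrected values already known. Their values for that contrast are therefore a description, and nothing is supported with them.

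Mouse CD8+ T cells, cytotoxic lymphocytes, were activated over 72 h with interleukin 2 at 100 U/mL, and their RNA was sequenced. An LSD1 inhibitor was added to the cells of 4 libraries (LSD1i), and 5 libraries (NT) came from cells that were not treated. LSD1 is a histone demethylase encoded by Kdm1a. The labels give neither the inhibitor's name and dose nor the strain and age of the mice, and whether each replicate is its own mouse or culture is not stated. The p-values therefore reflect only how these 9 libraries vary, which can be technical variation. In bulk RNA, fewer cells of a type and less RNA per cell cannot be told apart.

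TLR7 binds single-stranded RNA, TLR9 binds unmethylated CpG DNA and TLR3 binds double-stranded RNA. UNC93B1 carries these receptors out of the endoplasmic reticulum, and lysosomal proteases, among them cathepsin S and legumain, cut their ectodomains into a form that signals. The family is best known in plasmacytoid dendritic cells, B cells and macrophages, where TLR7 and TLR9 signal through MyD88 to interferon and NF-kB genes.

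Libraries held 15163983 to 29245278 raw counted reads. The deposited raw table and the deposited batch-corrected table disagree on the names of 4 libraries. Libraries were matched by which genes had no reads: each raw library had 1 partner with 0 genes at zero in only 1 of the tables, against at least 1336 such genes for any other partner. By this match NT 1, NT 2, LSD1i 1 and LSD1i 2 of the raw table are LSD1i 1, LSD1i 2, NT 1 and NT 2 of the corrected table, and the other 5 carry the same name in both. The labels do not say which set is right. Names below are those of the corrected table unless the raw table's names are mentioned, and each direction holds for those names. The libraries were also treated as 2 batches, replicates 1 and 2 and replicates 3 to 5. This split was set by replicate number, and no grouping of the libraries was computed. In raw counts NT 1 and NT 2 differed more (chi-square per degree of freedom 163) than NT 2 and NT 5 (98.8). The labels give no batch. The ribosomal RNA gene Rn45s took 13.3% of the raw reads of NT 1 and 1.66% to 2.87% of those of the other 8 libraries, and the calls of the 6 members reported as higher held without NT 1. Levels are given as CPM, counts scaled to each library's total with TMM factors.

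The values of these genes differ between the sets of names. Pld4 had 137, 214, 110 and 179 raw reads in LSD1i 1 to LSD1i 4, against 38, 17, 24, 21 and 25 in NT 1 to NT 5. Under the raw table's own names the 137 and 214 reads belong to NT and the 38 and 17 reads to LSD1i. Then the groups overlap for Pld4, and its log2 fold change is 0.05 ± 0.83 (SE) instead of 2.73 ± 0.16. With the raw table's names edgeR's quasi-likelihood test, at an adjusted p under 0.05, called 0 of the 8 members and 0 (0%) of 11916 genes. At an unadjusted p under 0.05 it had 0 members and 172 genes. In the second batch, whose 5 libraries have the same name in both tables, Pld4 had a log2 fold change of 2.73 ± 0.23.

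**Figure D1:**
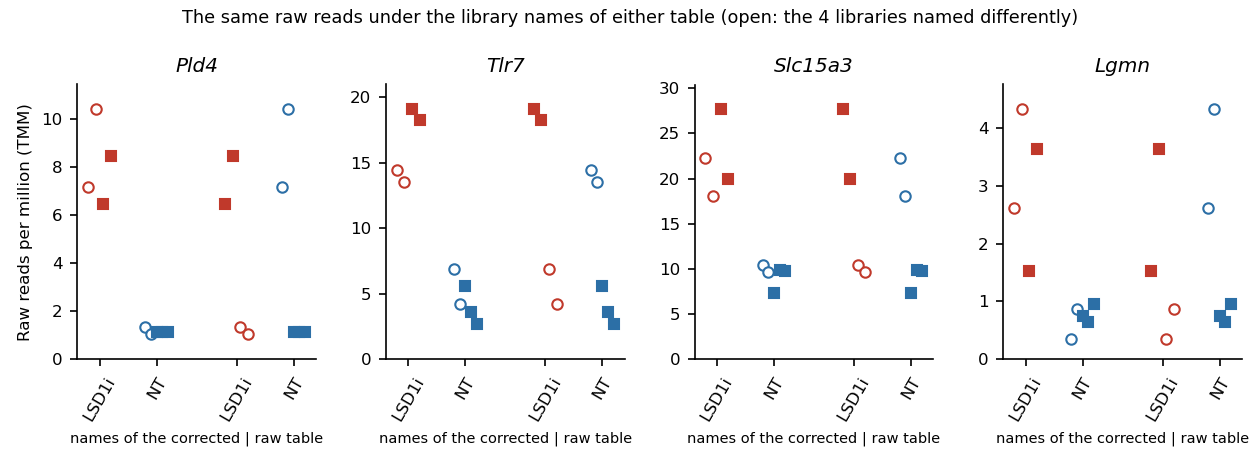
Raw CPM (TMM-scaled, vertical axis) of Pld4, Tlr7, Slc15a3 and Lgmn in the 9 libraries, drawn under the names of the corrected table (left pair) and of the raw table (right pair). Circles are replicates 1 and 2, squares replicates 3 to 5, and open symbols the 4 libraries named differently. The groups separate for all 4 genes on the left and overlap on the right.

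In the batch-corrected counts 6 of the 8 tested members were higher in LSD1i at an adjusted p under 0.05 over all genes (edgeR's quasi-likelihood test), and 0 were lower. Among all 11981 tested genes 3.31% were called, 2.15% higher and 1.16% lower. The 6 were Tlr7, Unc93b1, Ctss, Lgmn, Slc15a3 and Pld4, with adjusted p-values between 4.85e-06 for Pld4 and 0.00695 for Unc93b1. In all 6, and in neither Slc15a4 nor Pld3, every LSD1i library was above every NT library in TMM-scaled CPM, a separation seen for 4.41% of tested genes. The opposite separation, seen for 3.46% of tested genes, was found in 0 members. The median log2 fold change was 1.01 over the 8 and −0.02 over the 11981 tested genes. Because the members were chosen on this contrast, these shares say nothing further about them.

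**Figure D2:**
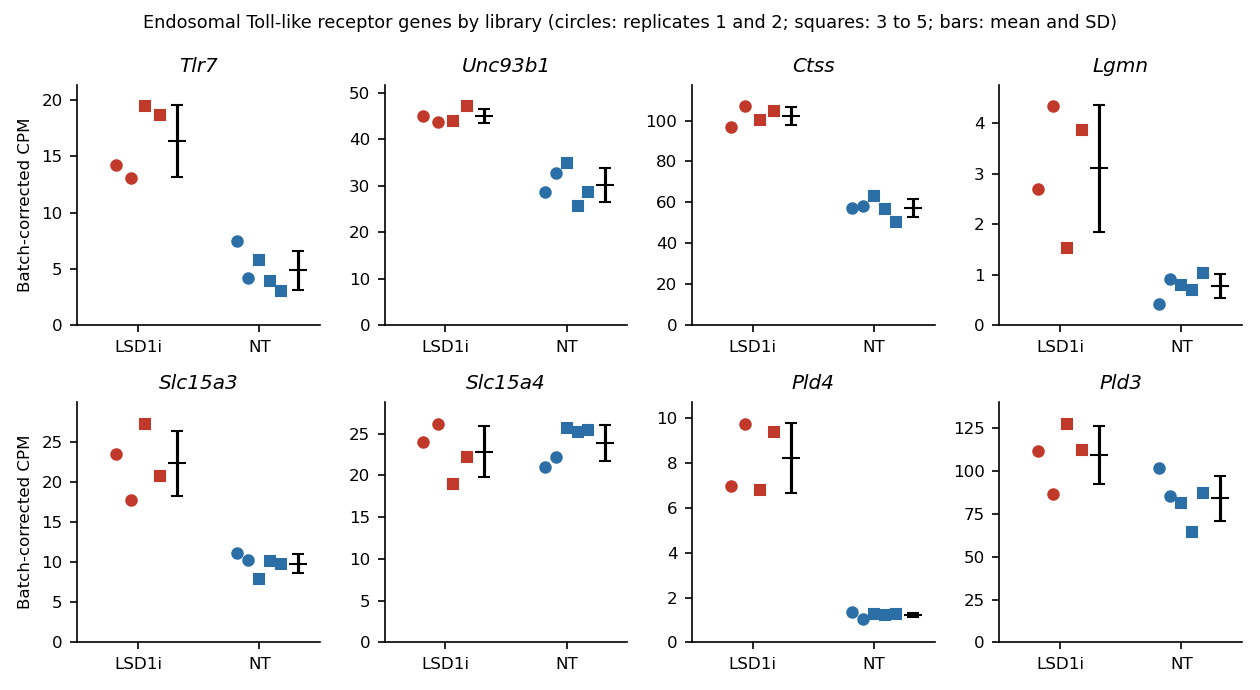
Batch-corrected CPM (vertical axis, from 0) of the 8 tested genes in 4 LSD1i and 5 NT libraries, with circles for replicates 1 and 2, squares for replicates 3 to 5, and bars for the mean and SD. Tlr7, Unc93b1, Ctss, Lgmn, Slc15a3 and Pld4 show no overlap between the groups, while Slc15a4 and Pld3 do.

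Of the receptors, only Tlr7 had more than a few reads. It stood at 14.2, 13.1, 19.4 and 18.7 CPM in LSD1i 1 to LSD1i 4, against 7.47, 4.15, 5.78, 3.91 and 3.03 CPM in NT 1 to NT 5. The groups did not overlap, and the LSD1i libraries of the second batch were the highest. The means were 16.4 ± 3.18 CPM in LSD1i (SD, n = 4) and 4.87 ± 1.76 CPM in NT (n = 5), a log2 fold change of 1.74 ± 0.24 (SE). It was 1.29 ± 0.28 in the first batch and 2.24 ± 0.28 in the second, a difference with an unadjusted p of 0.0577 in the test of treatment by batch (edgeR, adjusted p = 0.764).

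The other 2 receptors were barely counted. Tlr9 had 0, 0, 3 and 1 raw reads in LSD1i 1 to LSD1i 4 and 2, 0, 0, 0 and 2 in NT 1 to NT 5. Tlr3 had 0 reads in all 4 LSD1i libraries and 3, 0, 0, 0 and 1 in NT. With so few reads neither a precise level nor a difference can be read for them. Tlr8, the X-linked neighbour of Tlr7 that in human cells also senses RNA, had 0 reads in LSD1i and 1 in NT over all libraries, and Tlr13, a mouse sensor of bacterial ribosomal RNA, had 1 in each group.

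Unc93b1, the chaperone on which the endosomal receptors depend, was at 45.1, 43.7, 43.9 and 47.1 CPM in LSD1i 1 to LSD1i 4 and at 28.7, 32.8, 34.9, 25.7 and 28.6 CPM in NT 1 to NT 5. The LSD1i libraries lay close together, all above the NT range. Its means were 44.95 ± 1.54 CPM in LSD1i and 30.1 ± 3.65 CPM in NT, a log2 fold change of 0.58 ± 0.10, the smallest of the 6. In CPM from raw counts it ranged from 57.8 to 58.5 in LSD1i and from 38.8 to 41.0 in NT in the first batch, and from 33.3 to 36.5 in LSD1i and from 19.02 to 27.7 in NT in the second. LSD1i was above NT within each batch (log2 fold changes 0.52 ± 0.16 and 0.61 ± 0.17), but LSD1i libraries of the second batch were below NT libraries of the first. In the fit of raw counts with treatment alone its call was lost (adjusted p = 0.688).

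Both proteases were higher in LSD1i. Ctss, which encodes cathepsin S, the lysosomal cysteine protease that also trims the MHC class II invariant chain, had 96.8, 107, 100.4 and 105 CPM in LSD1i 1 to LSD1i 4. In NT 1 to NT 5 the values were 57.5, 58.5, 63.2, 56.9 and 50.5 CPM. Every library lay close to its group mean, 102 ± 4.498 CPM in LSD1i and 57.3 ± 4.57 CPM in NT. The log2 fold change was 0.83 ± 0.08, at 0.82 ± 0.16 in the first batch and 0.86 ± 0.11 in the second.

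Lgmn encodes legumain, an asparaginyl endopeptidase of the lysosome, and was the gene with the fewest reads among those tested. It had 50, 89, 26 and 77 raw reads in LSD1i 1 to LSD1i 4, against 10, 14, 16, 12 and 21 in NT 1 to NT 5. The corresponding CPM were 2.70, 4.33, 1.52 and 3.87 in LSD1i and 0.419, 0.923, 0.805, 0.687 and 1.02 in NT. The groups did not overlap, although LSD1i 3 lay nearer to the highest NT library than to the other LSD1i libraries. The means were 3.11 ± 1.26 CPM in LSD1i and 0.772 ± 0.234 CPM in NT, a log2 fold change of 2.03 ± 0.33.

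The transporters Slc15a3 and Slc15a4 belong to the same family and move histidine and small peptides across the endolysosomal membrane. SLC15A4 in addition holds the adaptor TASL, through which TLR7 and TLR9 reach IRF5. Slc15a3 was at 23.5, 17.8, 27.3 and 20.7 CPM in LSD1i 1 to LSD1i 4 and at 11.1, 10.2, 7.86, 10.1 and 9.79 CPM in NT 1 to NT 5. All LSD1i libraries were above all NT libraries (22.3 ± 4.04 CPM in LSD1i, 9.82 ± 1.20 CPM in NT, log2 fold change 1.18 ± 0.14).

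Slc15a4 showed no such separation. It was at 24.0, 26.2, 19.02 and 22.2 CPM in LSD1i 1 to LSD1i 4, and at 21.0, 22.2, 25.6, 25.2 and 25.5 CPM in NT 1 to NT 5, with a log2 fold change of −0.07 ± 0.11 (adjusted p = 0.870). LSD1i was the higher group in the first batch (0.33 ± 0.18) and the lower in the second (−0.23 ± 0.11). The test of treatment by batch gave an unadjusted p of 0.0132 and an adjusted p of 0.764. The gene for TASL, listed as 5430427O19Rik, stood at 5.60 ± 1.04 CPM in LSD1i and 7.40 ± 1.28 CPM in NT and did not pass (adjusted p = 0.300).

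PLD3 and PLD4 are lysosomal exonucleases that degrade single-stranded nucleic acid and so limit what TLR7 and TLR9 can bind. Pld4 had the largest fold change of the 8 tested genes. It was at 6.95, 9.75, 6.79 and 9.40 CPM in LSD1i 1 to LSD1i 4 and at 1.33, 1.05, 1.28, 1.22 and 1.25 CPM in NT 1 to NT 5. The NT libraries were almost level, and the lowest LSD1i library was far above all of them. The means were 8.22 ± 1.57 CPM in LSD1i and 1.23 ± 0.105 CPM in NT, a log2 fold change of 2.73 ± 0.16, with 2.82 ± 0.33 in the first batch and 2.73 ± 0.23 in the second.

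Pld3, its paralogue, had 111, 86.5, 128 and 112 CPM in LSD1i 1 to LSD1i 4, and 102, 85.3, 81.1, 64.6 and 87.4 CPM in NT 1 to NT 5. The groups overlapped, since NT 1 was above LSD1i 2. Its log2 fold change of 0.38 ± 0.14 did not pass (adjusted p = 0.203). It was −0.03 ± 0.22 in the first batch and 0.58 ± 0.11 in the second, with an unadjusted p of 0.0387 and an adjusted p of 0.764 for treatment by batch. Over all genes that test called 0 of 11916, with 581 at an unadjusted p under 0.05.

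**Figure D3:**
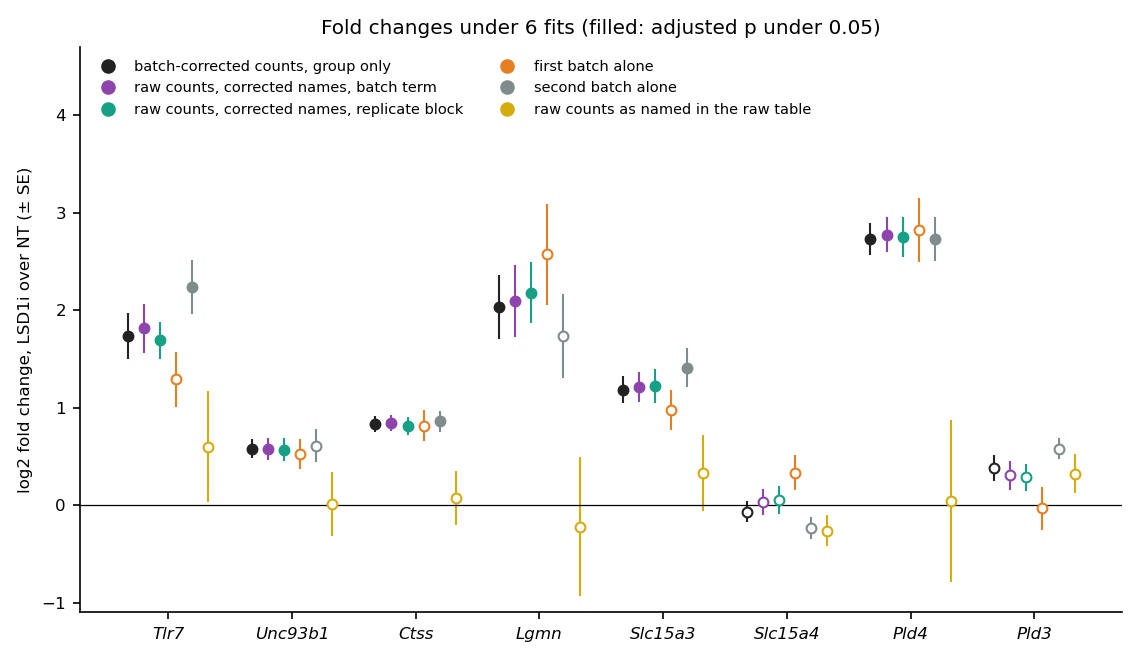
Log2 fold change of LSD1i over NT (vertical axis, ± SE) of the 8 tested genes in 6 fits, filled where the adjusted p was under 0.05. The 6 risen genes sit above 0 in every fit that uses the names of the corrected table, and under the raw table's names none of the 8 is filled, and of the 6 Lgmn is below 0.

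The calls were next read in raw counts that carry the corrected table's names. With the batch as a term, the same 6 of 8 passed, where 1.39% of 11916 tested genes were called higher. Their log2 fold changes ran from 0.57 ± 0.11 for Unc93b1 to 2.78 ± 0.18 for Pld4. With the replicate number as a block the same 6 passed in raw counts (1.98% of genes called higher) and in batch-corrected counts (1.83%). No LSD1i library shares the number of NT 5, so NT 5 adds nothing to the contrast under this block. In batch-corrected counts the numbers are not taken to pair the libraries. In the second batch alone 4 of the 6 passed, Tlr7, Ctss, Slc15a3 and Pld4 (0.803% of 12078 genes called higher), and Lgmn (adjusted p = 0.146) and Unc93b1 (0.184) did not. In the first batch alone, with 2 libraries a group, 0 passed in edgeR (0.0676% of 11837 genes called higher), and 6 of 8 had an unadjusted p under 0.05, beside 5.04% of all genes (597 of 11837). DESeq2 on the batch-corrected counts called the same 6 (5.57% of genes called, 3.34% higher).

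In the authors' deposited table Pld4 (log2 fold change 2.74), Lgmn (2.04) and Tlr7 (1.74) are marked as up. These values are near those under the corrected table's names (2.73, 2.03 and 1.74). Under the raw table's names they were 0.05, −0.22 and 0.60. The authors' comparison thus follows the corrected table's names, which alone does not show that those names are right. Slc15a3 (1.19, FDR 0.000108), Ctss (0.84, FDR 0.000120) and Unc93b1 (0.59, FDR 0.00300) are not marked there. The smallest size of a log2 fold change among the marked genes of the authors' deposited table is 1.20, just above that of Slc15a3.

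Promoter windows of 250 bases before and 50 after the gene start were looked up in RefSeq (GRCm38.p6, not the mm9 build of the counts) and were found for 7 of the 10 genes. No window was matched for Tlr7, Unc93b1 and Slc15a3. Each window was searched on both strands for GAGGAAGT, a motif of ETS factors such as PU.1, for GAAA, any 2 bases and GAAA again, a motif of interferon regulatory factors, and for AATCACNGC, a form of the motif of GFI1, a repressor that recruits LSD1. The motifs were chosen after the sequences had been seen. They occur in 3.20%, 3.44% and 0.919% of all 32851 windows. The windows of the 3 risen genes found and that of Slc15a4, which did not pass the test, are shown from 5′ to 3′ on the strand of the gene, with motif matches in capitals.
Pld4 (chr12:112760405-112760704, + strand): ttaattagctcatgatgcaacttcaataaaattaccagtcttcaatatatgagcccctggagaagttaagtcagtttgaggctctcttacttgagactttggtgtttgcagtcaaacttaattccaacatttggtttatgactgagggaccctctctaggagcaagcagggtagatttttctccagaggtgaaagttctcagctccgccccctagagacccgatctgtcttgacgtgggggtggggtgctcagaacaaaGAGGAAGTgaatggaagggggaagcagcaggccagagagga
Ctss (chr3:95526536-95526835, + strand): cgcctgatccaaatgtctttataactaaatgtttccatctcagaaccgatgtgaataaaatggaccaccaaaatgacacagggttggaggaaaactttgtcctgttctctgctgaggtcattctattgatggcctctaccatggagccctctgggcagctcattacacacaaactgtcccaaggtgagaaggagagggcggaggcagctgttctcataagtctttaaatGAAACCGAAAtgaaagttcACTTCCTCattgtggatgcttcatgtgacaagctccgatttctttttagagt
Lgmn (chr12:102439679-102439978, − strand): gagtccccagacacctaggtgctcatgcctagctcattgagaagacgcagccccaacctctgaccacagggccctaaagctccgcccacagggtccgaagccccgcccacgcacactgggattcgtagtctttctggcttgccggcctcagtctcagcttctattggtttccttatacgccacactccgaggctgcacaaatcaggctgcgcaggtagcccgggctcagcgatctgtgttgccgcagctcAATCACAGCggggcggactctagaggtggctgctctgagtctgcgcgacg
Slc15a4 (chr5:127617343-127617642, − strand): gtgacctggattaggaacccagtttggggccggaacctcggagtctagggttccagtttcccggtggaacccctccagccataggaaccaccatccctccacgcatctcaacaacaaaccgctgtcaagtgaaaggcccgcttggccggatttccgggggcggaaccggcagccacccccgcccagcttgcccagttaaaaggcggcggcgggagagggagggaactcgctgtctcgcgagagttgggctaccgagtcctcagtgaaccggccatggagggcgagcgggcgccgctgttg
Pld4 and Ctss both hold the ETS letters close to the gene start, on opposite strands, and Ctss has the interferon regulatory factor letters a few bases upstream of them. The Lgmn window holds the GFI1 letters at its annotated start, and a window of a second Lgmn start, not shown, holds none of the 3 motifs. The Slc15a4 window holds none. The ETS letters also occur in the window of Tlr9, which had at most 3 raw reads in any library, and the interferon regulatory factor letters in that of Pld3. A match is a string of letters and not a measured site. Spi1, which encodes PU.1, had 1 raw read in LSD1i and 3 in NT over all libraries. Genes of other ETS factors were not looked up for this motif. Gfi1 stood at 322 ± 30.4 CPM in LSD1i and 134 ± 12.5 CPM in NT (log2 fold change 1.26 ± 0.09, adjusted p = 3.13e-05 in edgeR).

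**Figure D4:**
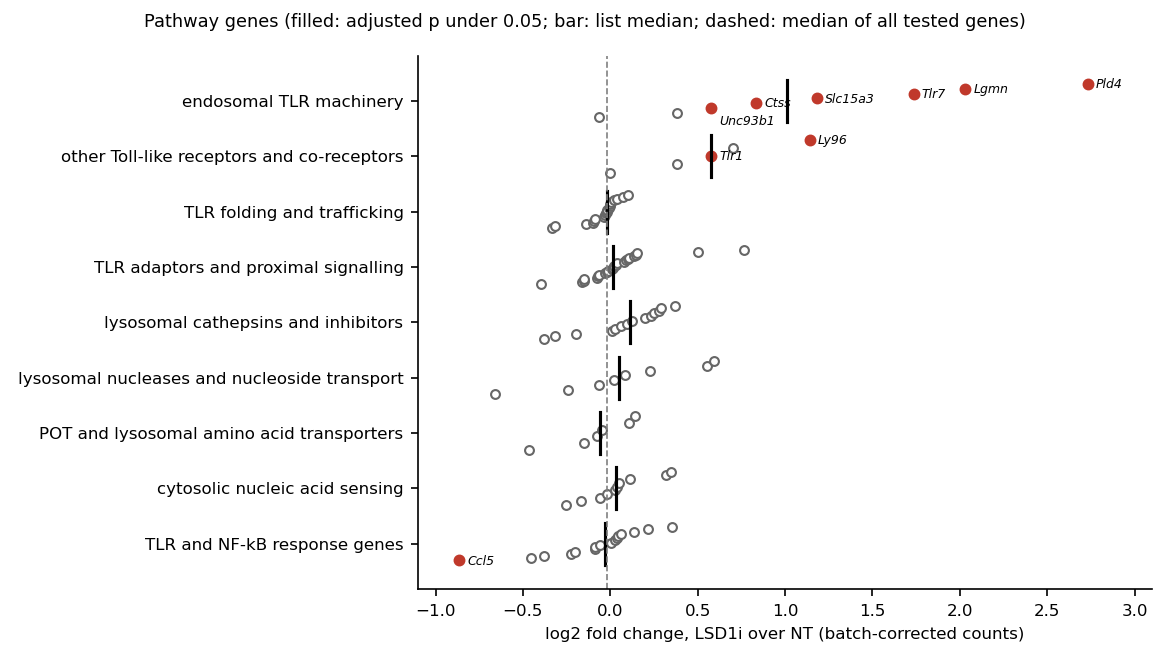
Log2 fold change of LSD1i over NT (horizontal axis) of every tested gene of the 10 endosomal receptor genes and of 8 surrounding lists, filled and named where the adjusted p was under 0.05. Bars are list medians and the dashed line is the median of all tested genes, −0.02. Outside the top row the filled genes are Ly96, Tlr1 and Ccl5.

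Around these genes, 102 genes of 8 pathway lists could be tested, of which 2 rose and 1 fell, beside 2.15% and 1.16% of all genes. Their median log2 fold change was 0.01, and 20 of them had an unadjusted p under 0.05, beside 14.6% of all genes (1744 of 11981), the share against which the counts of such genes in each list can be read. The rises were both among the 5 tested of 13 other Toll-like receptors and co-receptors. Tlr1, a surface partner of TLR2 for lipopeptides, stood at 12.2 ± 0.903 CPM in LSD1i and 8.19 ± 0.901 CPM in NT (log2 fold change 0.58 ± 0.11, adjusted p = 0.0145). Ly96, which encodes MD-2, the lipopolysaccharide-binding partner of TLR4, stood at 2.08 ± 0.370 CPM in LSD1i and 0.949 ± 0.292 CPM in NT (1.14 ± 0.25, adjusted p = 0.0275). Tlr4 itself did not pass the low-count filter. Tlr12 (0.70 ± 0.23, adjusted p = 0.151) and Tlr6 (0.38 ± 0.24) did not pass the test, nor did Tlr2, at 2.12 ± 0.557 CPM in LSD1i and 2.12 ± 0.480 CPM in NT. A batch term in the raw counts took away both calls, Tlr1 with an adjusted p of 0.0726 and Ly96 with 0.128. With the replicate block Tlr1 passed (0.0272) and Ly96 did not (0.115). When single libraries were left out, Tlr1 was lost in the absence of LSD1i 1 or LSD1i 4 (the highest adjusted p being 0.0636), and Ly96 without NT 2, NT 4, LSD1i 1, LSD1i 2 or LSD1i 3 (up to 0.0887).

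The signalling chain below the receptors showed 0 calls in edgeR, near the 3.31% of all tested genes called in either direction. Of 24 tested adaptors and proximal signalling genes, 3 had an unadjusted p under 0.05 and DESeq2 called 1, beside 5.57% of all tested genes. Myd88, the adaptor of TLR7 and TLR9, was at 37.2 ± 2.73 CPM in LSD1i and 34.5 ± 6.52 CPM in NT (0.11 ± 0.13). Ticam2, an adaptor of TLR4, had the smallest p of this list (0.50 ± 0.13, adjusted p = 0.0596), followed by Irak3, an inhibitor of the pathway (0.76 ± 0.31, adjusted p = 0.273). Irf5 (0.08 ± 0.14) and Irf7 (0.15 ± 0.12), the transcription factors downstream, did not pass.

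Of 16 tested Toll-like receptor and NF-kB response genes 0 rose and 1 fell, the chemokine gene Ccl5, at 18.1 ± 3.96 CPM in LSD1i and 32.9 ± 5.44 CPM in NT (−0.86 ± 0.16, adjusted p = 0.0148, but 0.0552 once raw counts were fitted by batch). The NF-kB inhibitor gene Nfkbiz (0.36 ± 0.15) and Nfkb1 (−0.22 ± 0.10) did not pass. The median of this list was −0.03.

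Genes that share the receptors' route or compartment, and cytosolic sensors, were read in 5 further lists. In lists of this size 0 calls is near the 3.31% of all tested genes called in edgeR. The DESeq2 counts of these 5 lists are to be read beside the 5.57% of all tested genes that DESeq2 called. Of 19 tested folding and trafficking genes 0 were called in edgeR, with 2 at an unadjusted p under 0.05 and 1 called by DESeq2. The endoplasmic reticulum chaperone Hsp90b1, known as gp96, was at 794 ± 50.4 CPM in LSD1i and 874 ± 105 CPM in NT (−0.14 ± 0.10), and the adaptor subunit gene Ap3s1 had the smallest p of the list (−0.33 ± 0.09, adjusted p = 0.0880), followed by Sel1l, a gene of endoplasmic reticulum-associated degradation (−0.32 ± 0.12, adjusted p = 0.209). Of 14 tested cathepsins and their inhibitors 0 were called, with 5 at an unadjusted p under 0.05 and 2 called by DESeq2. The inhibitor gene Cst7 (−0.31 ± 0.09, adjusted p = 0.0884), the aspartic protease gene Ctsd (−0.38 ± 0.11, adjusted p = 0.105) and the thiol reductase gene Ifi30 (0.37 ± 0.14) had the smallest p-values. Ctsb and Ctsl, which encode proteases that can also cut TLR9, had log2 fold changes of 0.03 ± 0.07 and 0.23 ± 0.12.

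Among 8 tested lysosomal nucleases and related genes 0 were called, with 2 at an unadjusted p under 0.05 and 2 called by DESeq2. Pld2, a phospholipase D of the same superfamily as Pld4, had a log2 fold change of 0.55 ± 0.14 (adjusted p = 0.0647), Acp5 0.59 ± 0.16 (0.0817) and the nucleoside transporter gene Slc29a3 −0.66 ± 0.33 (0.405). Of 6 tested lysosomal transporters outside the members 0 were called, 0 at an unadjusted p under 0.05 and 0 by DESeq2, Slc36a1 having the smallest p (−0.47 ± 0.28), followed by Ctns (0.14 ± 0.19) and Pqlc2 (−0.15 ± 0.22). Of 10 tested genes of cytosolic nucleic acid sensing 0 were called, with 2 at an unadjusted p under 0.05 and 1 called by DESeq2. Aim2, the DNA sensor of an inflammasome, had the smallest p (0.35 ± 0.10, adjusted p = 0.0920), followed by Ifih1 (−0.25 ± 0.11) and Dhx58 (0.32 ± 0.16).

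Since TLR7, cathepsin S and PLD4 are typical of plasmacytoid dendritic cells, B cells and macrophages, markers of these cells were read in the same libraries. Some of the defining genes, named after their values were seen, were at or near 0. Lyz2 had 1 raw read in LSD1i and 0 in NT over all libraries, Csf1r 1 and 1, Siglech 0 and 3, and Ms4a1 4 and 3. Others were counted, Cd68 with 602 reads in LSD1i and 826 in NT, Flt3 with 34 and 49, Itgam with 26 and 34, and Spib with 27 and 51. Markers at no more than 5 reads in any library numbered 12 of 21 for macrophages, monocytes and dendritic cells, 8 of 13 for B cells and 3 of 14 for plasmacytoid dendritic cells. The CD8 T cell list was at 8582 to 10543 summed CPM in LSD1i and at 9239 to 12374 in NT, with 74.8% of the sum from Gzmb, Lck and Thy1.

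The summed level of the macrophage, monocyte and dendritic cell markers ran from 21.4 to 26.4 CPM in LSD1i and from 17.3 to 26.5 CPM in NT (exact two-sided permutation test, p = 0.524). That of the B cell markers was lower in LSD1i, 11.0 to 13.03 CPM against 13.5 to 14.2 CPM in NT (exact p = 0.0159, 0.0317 adjusted over 6 lists). Cd79b, Cd22 and Vpreb3 made up 92.3% of the B cell sum. Most of it was Cd79b alone, at 8.65 ± 0.579 CPM in LSD1i and 11.6 ± 0.621 CPM in NT. The summed level of the plasmacytoid dendritic cell list was higher, 659 to 679.6 CPM in LSD1i and 581 to 657 CPM in NT (exact p = 0.0159, adjusted 0.0317). Irf8, Bst2 and Pacsin1 made up 92.8% of that sum, and Irf8 alone, at 449 ± 14.5 CPM in LSD1i and 402 ± 25.6 CPM in NT, did not pass (adjusted p = 0.360 in edgeR). Of the 10 tested genes of the plasmacytoid list 5 were above 0. EdgeR called 2 of them higher and 0 lower, beside 2.15% and 1.16% of all tested genes. Their log2 fold changes ran from −0.75 to 0.85, with a median of −0.02. The value 0.0159 is the smallest that 4 against 5 libraries can give. With raw counts and the corrected names the exact p was 0.0952 for the B cell and 0.190 for the plasmacytoid list.

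Of 8 tested MHC class II genes 1 rose and 0 fell, beside 2.15% and 1.16% of all tested genes. The gene that rose was Cd74, the invariant chain that cathepsin S trims, at 98.4 ± 13.2 CPM in LSD1i and 35.0 ± 7.82 CPM in NT (1.49 ± 0.16). H2-Ab1, a class II chain, stood at 98.8 ± 17.1 CPM in LSD1i and 68.5 ± 13.2 CPM in NT and did not pass (0.53 ± 0.16, adjusted p = 0.118). Neither did H2-Ob (0.50 ± 0.14, adjusted p = 0.0787), H2-Oa (0.48 ± 0.16, adjusted p = 0.160) and H2-DMb1 (0.27 ± 0.19). H2-DMb2 (−0.78 ± 0.20, adjusted p = 0.0662), H2-DMa (−0.15 ± 0.09) and H2-Eb1 (0.06 ± 0.33) did not pass either. Of the 8 genes 6 were above 0, with a median log2 fold change of 0.37. In edgeR 5 had an unadjusted p under 0.05, beside 14.6% of all genes, and DESeq2 called 4, beside 5.57%. The summed level of the list was 213 to 290.0 CPM in LSD1i and 140.3 to 180.3 CPM in NT (exact p = 0.0159, adjusted 0.0317), with 85.9% of it from H2-Ab1, Cd74 and H2-DMa. Single markers that also rose were Mpeg1, a pore-forming protein of macrophages (1.41 ± 0.31), Pacsin1 (0.76 ± 0.16), Il3ra (0.51 ± 0.11) and Cd22 (3.52 ± 0.54), whereas Cd79b (−0.43 ± 0.09) and Ebf1 (−1.23 ± 0.30) fell. Cd22 was near 0 in NT, at 0.125 ± 0.152 CPM against 1.69 ± 0.487 CPM in LSD1i. Fitted by batch in raw counts, Mpeg1 (adjusted p = 0.0527), Il3ra (0.0906) and Cd79b (0.132) lost their calls. Without 1 library so did Mpeg1 (without NT 3, NT 4, LSD1i 2, LSD1i 3 or LSD1i 4), Il3ra and Pacsin1 in 5 of 9 cases each, Cd79b in 7 of 9 and Ebf1 in 4 of 5. The call of Ebf1 was also lost in DESeq2 (adjusted p = 0.111), in edgeR without the low-count filter (0.111) or with plain library totals (0.0506), and with the replicate block (0.166). Whether a few cells of another type add to the members' levels was not tested.

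The summed markers of CD4 T cells (39.4 to 46.9 CPM in LSD1i, 28.4 to 46.5 CPM in NT, exact p = 0.286) and of NK cells (3.22 to 4.36 CPM in LSD1i, 4.003 to 6.23 CPM in NT, exact p = 0.0794) overlapped between the groups. Of the CD4 list Cd40lg rose (3.58 ± 0.54) and of the CD8 T cell list Cd8a rose (0.38 ± 0.08, lost with the batch term at an adjusted p of 0.126). Cd40lg was near 0 in NT, at 0.0895 ± 0.110 CPM against 1.21 ± 0.280 CPM in LSD1i. The NK list had 0 of 2 tested genes, Klra7 (−0.39 ± 0.21) and Klra1 (−0.22 ± 0.21), called, 0 at an unadjusted p under 0.05 and 0 by DESeq2. For 2 genes a count of 0 is near the 3.31% of all tested genes called in edgeR.

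**Figure D5:**
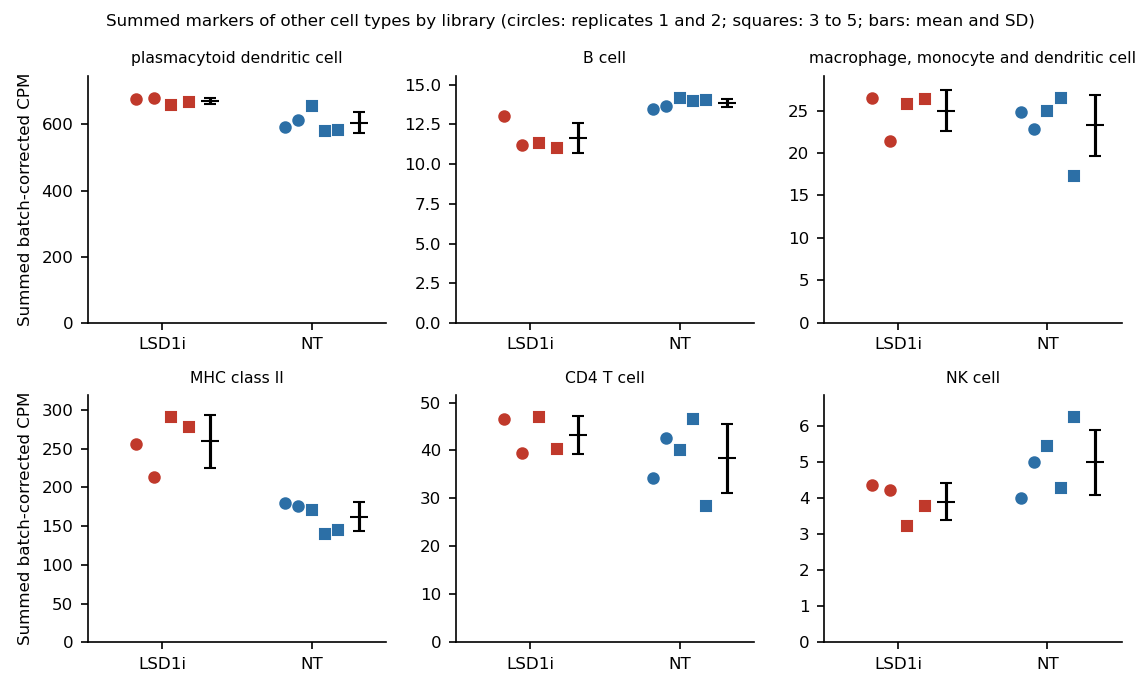
Summed batch-corrected CPM (vertical axis, from 0) of 6 marker lists in 4 LSD1i and 5 NT libraries, with bars for the mean and SD. The MHC class II and plasmacytoid dendritic cell sums are higher and the B cell sum lower in every LSD1i library, and the macrophage, CD4 T cell and NK cell sums overlap.

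For each risen member the genes outside the 10 with the most similar profile were sought by Pearson's r of log2(CPM + 1) over the 9 libraries, a description to which the group difference and shared library effects both add. Pld4 was closest to Icos (r = 0.997), Trpm6 (0.994) and Dennd5a (0.994). Tlr7 was closest to Plxdc2 (0.991), Scpep1 (0.988) and Add3 (0.988), and Ctss to Ccdc125 (0.995), Mnda (0.992) and Upp1 (0.988). Slc15a3 followed Phyh (0.993), Sh3bp4 (0.990) and Klri2 (0.987). Lgmn followed Psme2 (0.986), Hmgn1 (0.985) and Dnaaf2 (0.969), and Unc93b1 followed Myl12b (0.983), Anxa6 (0.983) and Tmsb10 (0.980). No gene was among the closest of more than 1 member.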

How the data were processed

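The authors deposited raw whole-number read counts per gene and a table of batch-corrected counts, treated here as estimated counts and rounded before testing (all were already whole). STAR, featureCounts, edgeR and build mm9 are named per the submitters' processing notes, while versions, strand setting and correction method are not stated, so reads of overlapping or antisense genes may be mixed. The authors' deposited comparison table gives log2 fold changes, a score (F), p-values and FDR.

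Genes were tested with edgeR 4.0.16 (R 4.3.3; quasi-likelihood, TMM, low-count filter by group with minimum count 10 and minimum total 15, Benjamini-Hochberg adjustment over all tested genes at 0.05), LSD1i over NT, on all 9 libraries and without covariates. The script was tested on simulated counts that held no batch and no correction. Fold-change errors are standard errors, CPM errors standard deviations over 4 LSD1i or 5 NT libraries. The correction made beforehand is not counted in the degrees of freedom of the edgeR test, so its p-values can be too small. The simulated counts do not check this. Unc93b1, for example, had an adjusted p of 0.00695 in this test and 0.0284 in edgeR with the batch as a term in raw counts. Libraries were matched between tables by their zeros. Alternatives were raw counts under either set of names, a batch term, the replicate block, each batch alone, DESeq2 1.42.0, other scalings, no filter and leaving out each library. Marker sums were compared by exact two-sided permutation tests over libraries (scipy 1.17.1).

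Deviations from group means of same-numbered libraries correlated at −0.34 to 0.36 in corrected data, against −0.74 to 0.74 for other pairs. The numbers are therefore not taken to pair libraries there. In raw counts, where numbers and batches coincide, same-numbered libraries correlated at 0.534 to 0.783 and other pairs at −0.82 to 0.77. Every pair of libraries within a group differed beyond sampling noise (lowest chi-square per degree of freedom 7.10).

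Members, lists and tests were chosen with earlier results of these data known. Named are all members, list genes that passed, or the 3 with the smallest p-values in a list where none did, and the 3 genes most similar to each risen member. Genes named outside this rule (Rn45s, Spi1, Gfi1, Irf8, Irf5, Irf7, Myd88, Ctsb, Ctsl, Nfkbiz, Nfkb1, Tlr2, Tlr4, Tlr6, Tlr8, Tlr12, Tlr13, MHC class II genes other than Cd74, Gzmb, Lck, Thy1, Bst2, Vpreb3 and the cell-type markers given in raw reads) were added after their values were seen.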

Additional observations from a re-analysis of the deposited data

How the results depend on the processing

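The calls of all 6 risen members held without each of the 9 libraries, with RLE or plain library scaling, without the filter, in DESeq2, with the batch term and with the replicate block on either table, which changed no member call. They were lost with raw counts as named (where Lgmn turned to −0.22 and the others lay between 0.01 and 0.60), in the first batch alone, for Unc93b1 with raw counts, corrected names and treatment alone, and for Unc93b1 and Lgmn in the second batch alone. Without 1 library the log2 fold change of Pld4 ran from 2.65 to 2.82, Tlr7 from 1.603 to 1.96, Lgmn from 1.84 to 2.26, Slc15a3 from 1.08 to 1.29, Ctss from 0.80 to 0.87 and Unc93b1 from 0.53 to 0.64. Slc15a4 changed sign with the corrected names in raw counts, at 0.094 with treatment alone, 0.031 with the batch term, 0.054 with the block and 0.33 in the first batch, and ran from −0.13 to 0.020 without 1 library (0.020 without LSD1i 3). Pld3 was at −0.034 in the first batch. With raw counts as named Ccl5 (0.24), Cd22 (−0.43) and Cd8a (−0.037) also changed sign.

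The 397 calls over all genes (258 higher, 139 lower) became 0 (0 and 0) with raw counts as named, 84 (71 and 13) with corrected names and treatment alone, 220 (166 and 54) with the batch term, 8 (8 and 0) in the first batch, 117 (97 and 20) in the second and 667 (400 and 267) in DESeq2. With the replicate block there were 352 in raw and 326 in corrected counts. Without 1 library they ranged from 219 to 432 (163 to 303 higher, 56 to 159 lower), the fewest without LSD1i 4, and were 228 without LSD1i 1 and 251 without LSD1i 3. Leaving out NT 2 left 86 falls, NT 3 87, NT 4 81, LSD1i 1 62, LSD1i 3 63 and LSD1i 4 56.

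The 2 rises and 1 fall in the pathway lists became 0 and 0 with raw counts as named and with corrected names and treatment alone. The batch term and each batch alone also gave 0 and 0. The replicate block on either table gave 1 and 1. In DESeq2 6 rose and 4 fell, 10 of the 102 tested genes, beside 5.57% of all tested genes. Without 1 library 0 (LSD1i 1) to 5 (NT 1) rose, and 1 rose without NT 2, NT 4, LSD1i 3 or LSD1i 4. The summed plasmacytoid dendritic cell and B cell markers no longer passed with raw counts and corrected names (LSD1i minus NT 92.3 CPM, exact p = 0.190, and −1.75 CPM, exact p = 0.0952). The cause of these changes was not tested. Too few reads of Tlr9 and Tlr3 were counted to read a difference. Lgmn, the tested member with the fewest reads, had the largest SE (0.33).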

Other observations

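The genes next to the 6 risen members were read as well, a look added after the data were seen. The nearest tested gene on each side was taken from the gene order of RefSeq (GRCm38.p6), which gave 12 neighbours. None of the 12 passed at an adjusted p under 0.05 in edgeR, beside 3.31% of all tested genes called in either direction. For 12 genes a count of 0 is near that share, so it says nothing particular about these neighbours. Beside Tlr7 on chromosome X stood Tmsb4x (log2 fold change −0.01 ± 0.10) and Prps2 (0.21 ± 0.08), and beside Pld4 on chromosome 12 Cep170b (0.03 ± 0.13) and Cdca4 (0.14 ± 0.10). Lgmn, also on chromosome 12, lay between Rin3 (0.14 ± 0.30) and Golga5 (−0.05 ± 0.10). Slc15a3 and Unc93b1 are both on chromosome 19, and their neighbours were Cd6 (0.14 ± 0.15) and Tmem132a (0.15 ± 0.31) for Slc15a3 and Ndufs8 (0.01 ± 0.13) and Nudt8 (−0.20 ± 0.12) for Unc93b1. Ctss, on chromosome 3, lay between Arnt (−0.08 ± 0.20) and Golph3l (−0.06 ± 0.10).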
